A study of Mus musculus with 4 samples.

Results

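The proteasome genes described here are the 34 constitutive subunit and assembly genes whose symbols are exactly Psma1 to Psma7, Psmb1 to Psmb7, Psmc1 to Psmc6 and Psmd1 to Psmd14. They were taken by symbol alone, by a rule set while earlier results of these data were known. All 34 were found among the 34097 genes of each library. Single-cell RNA sequencing (Chromium 3' kit) was run on transplanted mouse hearts taken at day 5. The labels describe 4 libraries: allogeneic replicates 1, 2 and 3, and isogeneic replicate 2, in which donor and recipient are genetically alike. The series is about the checkpoint protein VISTA on macrophages. The labels name no strain, age, allele, sort or agent, and no treatment shared by all the grafts beyond the transplantation itself. Since nothing there ties a replicate to its own animal, the spread behind every p-value is that of these libraries and may be technical.

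The proteasome is the barrel-shaped protease that degrades proteins tagged with ubiquitin. Its core particle is built of stacked rings: the Psma genes encode the outer alpha rings, whose tails gate the entry pore, and the Psmb genes encode the inner beta rings. Psmb5, Psmb6 and Psmb7 carry the chymotrypsin-like, caspase-like and trypsin-like active sites. The Psmc genes encode the ring of ATPases that unfolds substrates, and most Psmd genes encode the rest of the regulatory particle, which binds and deubiquitinates them. Psmd5, Psmd9 and Psmd10 are chaperones of ATPase ring assembly that are absent from the finished particle. Under interferon, Psmb8, Psmb9 and Psmb10 are made in place of Psmb5, Psmb6 and Psmb7, and the resulting immunoproteasome shapes the peptides shown on class I MHC molecules. When proteasome activity falls short, the factor NFE2L1 raises constitutive subunit genes through antioxidant response elements in their promoters. CCAAT boxes, bound by the factor NF-Y, are common in such promoters too.

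Because these elements are the known route to joint control of the family, the promoters were read first. RefSeq promoters (build GRCm38.p6, 250 bases before to 50 bases after the start, 300 bases in all) were found for 28 of the 34 genes. Psmb1, Psmb2, Psmb7, Psmc3, Psmd3 and Psmd7 had no entry. The antioxidant response element core TGACNNNGC, searched on both strands, was in 5 of 28 promoters (17.9%), beside 12.5% of all 27025 promoters searched, of the same length. None of the 5 belonged to the alpha ring (0 of 7), and 2 belonged to the 4 listed beta ring genes, both of them catalytic. The 5 sites are shown because they hold both Psmb5 and Psmb6, with the element in capitals. The Psmc6 and Psmd12 sites lie on the opposite strand, so their capitals read as the reverse complement.
Psmb5 (chr14:54618024-54618052, minus strand, 47 bases before the start): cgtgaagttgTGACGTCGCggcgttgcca
Psmb6 (chr11:70525338-70525366, plus strand, 9 bases before the start): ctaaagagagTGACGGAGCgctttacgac
Psmc6 (chr14:45329587-45329615, plus strand, 227 bases before the start): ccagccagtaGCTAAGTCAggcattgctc
Psmd9 (chr5:123228149-123228177, plus strand, 31 bases before the start): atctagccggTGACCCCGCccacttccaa
Psmd12 (chr11:107479278-107479299, plus strand, 247 bases before the start): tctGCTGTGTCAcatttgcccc

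The CCAAT box (CCAAT, both strands) was in 11 of 28 promoters (39.3%), beside 37.9% of all promoters. By group it was in 5 of 7 alpha ring promoters, 1 of 4 beta ring, 2 of 5 ATPase ring and 3 of 12 Psmd promoters. The alpha ring sites nearest the start are shown because that ring had the highest median difference between the grafts in 4 of the 5 classes (not in T cells), with the box in capitals. The Psma3 box is on the opposite strand and 13 bases after the start. Psma4 and Psma5 held no CCAAT box, and Psma5 had the widest gap of the ring in endothelial cells, fibroblasts and neutrophils. Whether the box has a part in the gaps was not tested. These matches are letters in a window, not measured binding.
Psma1 (chr7:114276200-114276224, minus strand, 98 bases before the start): gagcttcctgCCAATcccacgttct
Psma2 (chr13:14613178-14613202, plus strand, 54 bases before the start): tgactctcctCCAATcagagcaaag
Psma3 (chr12:70974626-70974650, plus strand): aggaaaggctATTGGtggagagcgc
Psma6 (chr12:55384183-55384207, plus strand, 29 bases before the start): ccactaggtgCCAATggaattcctg
Psma7 (chr2:180042646-180042670, minus strand, 196 bases before the start): ctgcctgtcgCCAATgcgcgctcga

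The interferon-stimulated response element core (GAAA, any 2 bases, GAAA, both strands) was in 3 of 28 promoters (Psmb3, Psmd4 and Psmd9), beside 3.49% of all promoters. The same core was in 0 of the 3 immune core genes, so this letter search found none of the genes that interferon is known to raise. The interferon gamma activated site TTCNNNGAA (both strands) was in 1 of 28 (Psmd2), beside 8.47% of all, and in Psmb8 among the 3 immune core genes. The 34 genes lie on 15 chromosomes of build mm10 (GENCODE annotation), so they do not share a locus. A gene on the other strand overlaps 13 of them, Psma5 among them (chr3:108256926-108279974), and the sources used here do not say whether counting used strand, so such reads cannot be told apart. Psma7 (chr2:180036374-180042433) and Psmb6 (chr11:70525367-70527858) have no overlapping gene.

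Library totals ran from 51054446 to 100038951 unique molecular identifiers (UMIs, counted mRNA molecules), and 4983 to 11386 cells per library passed the filters. Cells were assigned to a class where at least 3 of its 8 marker genes had a UMI, and at least 2 more than of any other class, which placed 73.6% to 85.3% of them. Pairs of libraries shared 14 to 31 barcodes, at most 0.473% of the smaller library. The allogeneic replicate 3 stood apart: fibroblasts were 35.1% of its cells, beside 1.10% and 1.87% in the allogeneic replicates 1 and 2 and 47.9% in the isograft. Complement C1q transcripts, which are those of macrophages, also differed among the T cells. The gate of 3 UMIs was reached in 59.4%, 50.7% and 3.05% of T cells in allogeneic replicates 1, 2 and 3. In the isograft it was reached in 0%. Whether these transcripts came from free RNA or from droplets holding several cells was not tested, nor was their part in the results below. Cardiomyocytes were 41, 92 and 12 cells in the allogeneic libraries and were not tested, as were NK, B, dendritic and mural cells. The 5 classes tested held at least 20 cells in every library, at the least 30 T cells, 1095 mononuclear phagocytes, 57 neutrophils, 261 endothelial cells and 55 fibroblasts. Levels are in CPM (the gene's share of all UMIs of the class in that library, on the usual scale of counts per 1e6), and since the 3' chemistry gives 1 tag per molecule they do not grow with gene length.

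The 34 genes were transcribed at very different levels within one class, although the particle holds its ring subunits in equal numbers. In mononuclear phagocytes the mean CPM over the 4 libraries ran from 14.3 for Psmd5 to 656 for Psma7, a 45.8-fold span, with a median of 135. Within each group the span was narrower. In the alpha ring Psma7 (656) stood above Psma1 (188), in the beta ring Psmb6 (403) above Psmb7 (117), in the ATPase ring Psmc2 (137) above Psmc1 (60.4), and among the Psmd genes Psmd8 (355) above the chaperone gene Psmd5. Core ring genes were the more abundant: all 7 alpha ring and all 7 beta ring means were above 100 CPM. The chaperone genes Psmd9 and Psmd10 had means of 44.5 and 58.3 CPM. The order of the 34 genes was much the same in the 5 classes, with Spearman's rho between 0.850 and 0.983 for the 10 pairs of classes (34 genes that share their libraries, a description).

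**Figure D1:**
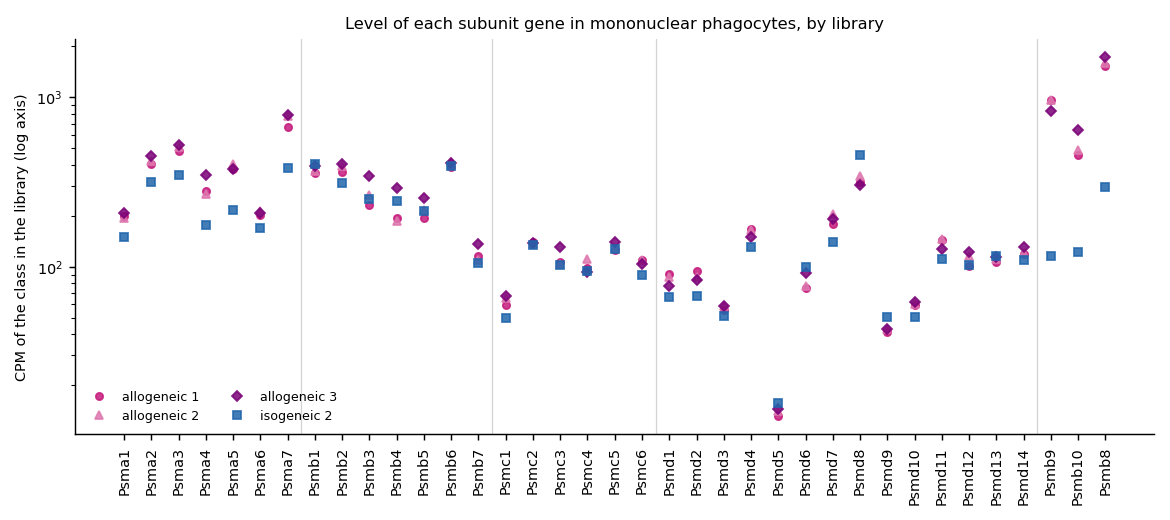
Level of each of the 34 subunit genes and the 3 immune core genes in mononuclear phagocytes; the y axis is CPM on a log scale and each symbol is 1 library. The 7 alpha ring genes on the left have all 3 allogeneic libraries above the isograft (blue squares), most beta ring genes do not, and Psmb8, Psmb9 and Psmb10 on the right are separated most widely.

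The first comparison was between allogeneic and isogeneic grafts within each class. No constitutive gene passed the test in any class. In mononuclear phagocytes 0 of 34 passed, where 8.15% of 16133 genes did, and the counts were 0 of 34 in endothelial cells (4.55% of 12779), 0 of 34 in fibroblasts (2.48% of 16395), 0 of the 28 tested in neutrophils (4.87% of 4333) and 0 of 34 in T cells (0% of 13278). The test was edgeR's quasi-likelihood F-test on UMIs summed per library, with Benjamini-Hochberg adjustment over all genes of the class at 0.05. At an unadjusted p under 0.05 there were 5, 2, 2, 2 and 16 members in the same order. Over all genes tested there were 4758, 2829, 2063, 626 and 1376. The members' share was thus below that of all genes in every class except T cells. DESeq2's Wald test called 4 of 34 in mononuclear phagocytes (Psma3, Psma4, Psma5 and Psma7), where it called 14.7% of all genes, and 0 elsewhere. This assumes for the single isogeneic library the same variance as for the other 3. In simulated mononuclear phagocyte data 15% of 2-fold changes (log2 of 1) were recovered, and 82% of 4-fold changes (log2 of 2). In endothelial cells the shares were 21% and 94%, and in fibroblasts 8% and 45%. In neutrophils they were 0% and 33%, and in T cells 0% and 4%. Smaller differences than these thus lie largely under the reach of 3 libraries against 1. In neutrophils and T cells most 4-fold changes do too, so a count of 0 there cannot show that the genes were unchanged.

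In mononuclear phagocytes the alpha ring carried the widest gaps between the grafts. Psma7 stood at 674, 778 and 789 CPM in allogeneic replicates 1, 2 and 3 of mononuclear phagocytes and at 383 in the isograft. Psma5 stood at 380.4, 404 and 381 CPM and at 218 in the isograft. All 3 allogeneic libraries were above the isograft for both genes, with no overlap. The log2 differences were 0.95 ± 0.20 for Psma7 (approximate SE, adjusted p = 0.056) and 0.82 ± 0.18 for Psma5 (adjusted p = 0.0583, edgeR, 3 libraries against 1), just outside the threshold. Both were picked out after their values were seen, although Psma7 is also the most abundant gene of its ring. Psma1, the least abundant, had 199, 194 and 208 CPM beside 151 in the isograft, a log2 difference of 0.39 ± 0.16 (adjusted p = 0.186).

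All 7 alpha ring genes were higher in every allogeneic library than in the isograft in mononuclear phagocytes, as were 35.6% of all genes. The ring's log2 differences ran from 0.28 to 0.95, with a median of 0.52. The median over all genes tested in that class was -0.02. Summed over the ring, the level was 2621, 2788 and 2909 CPM in the allogeneic libraries, beside 1766 in the isograft. The summed beta ring had 1844, 1960 and 2241 CPM beside 1922, so there the isograft lay inside the allogeneic range. The beta ring's median log2 difference was 0.04. Of its 7 genes 2 (Psmb2 and Psmb7) were above the isograft in every allogeneic library, near the 35.6% of all genes. Psmb1 was below the isograft in every one, as were 36.7% of all genes.

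The catalytic genes of the beta ring showed the small size of its gaps. Psmb5 had 195, 217 and 256 CPM in the allogeneic mononuclear phagocytes and 214 in the isograft, Psmb6 had 388, 417 and 411 beside 395, and Psmb7 had 116, 109 and 136 beside 105. The isograft fell between the allogeneic libraries for Psmb5 and Psmb6 and below all of them for Psmb7. The log2 differences were 0.04 ± 0.21, 0.02 ± 0.17 and 0.17 ± 0.18 (adjusted p = 0.913, 0.946 and 0.579, edgeR). The signs for Psmb5 and Psmb6 turned under some alternative settings.

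In the ATPase ring all 6 log2 differences were positive but small, from 0.02 to 0.35, and its sum was 641, 657 and 672 CPM beside 598. Psmc1, the least abundant ATPase gene, had 59.8, 65.1 and 66.9 CPM beside 49.6, a log2 difference of 0.35 ± 0.16 (adjusted p = 0.216). Psmc2, the most abundant, had 140, 137 and 138 CPM beside 135, a log2 difference of 0.02 ± 0.16 (adjusted p = 0.938). The Psmd group was mixed, with 9 of 14 differences positive and 5 negative, and its sum in the isograft, 1571 CPM, lay within 1564 to 1634 in the allogeneic libraries. Psmd8, a subunit of the lid of the regulatory particle, had the most negative difference: 315, 343 and 303 CPM beside 459 in the isograft, with all 3 allogeneic libraries lower (log2 -0.53 ± 0.18, adjusted p = 0.129). Psmd5 had 13.1, 14.0 and 14.4 CPM beside 15.7 (log2 -0.19 ± 0.18, adjusted p = 0.521).

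**Figure D2:**
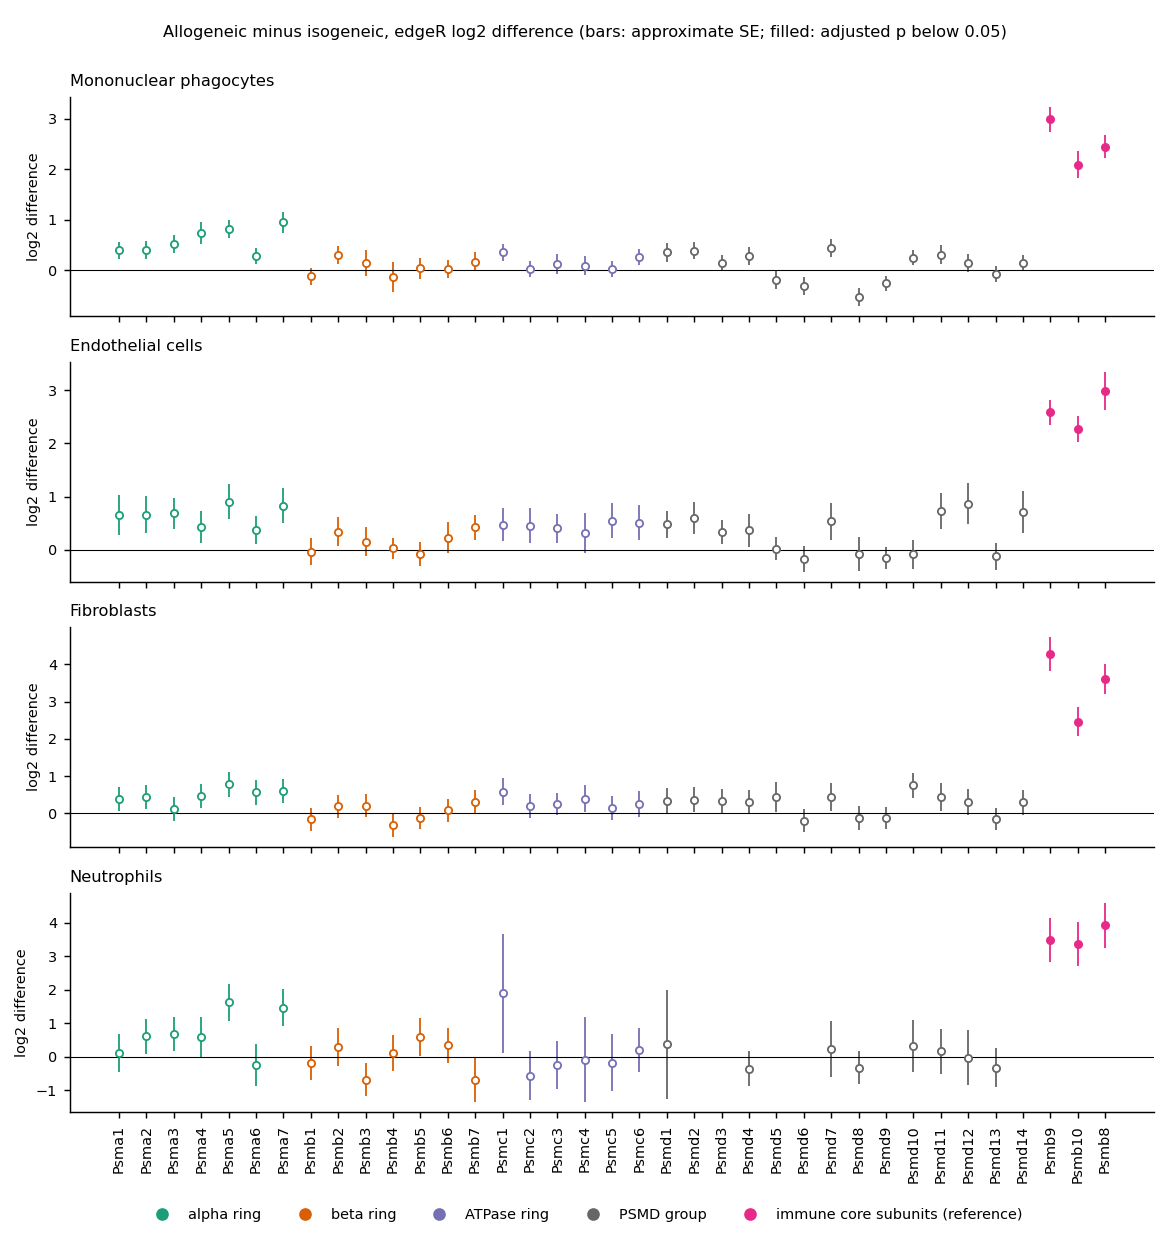
Log2 difference, allogeneic minus isogeneic, of each gene (x axis) in 4 cell classes, with approximate SE from edgeR. Filled points passed the test at an adjusted p of 0.05: only the 3 immune core genes at the right did, and the alpha ring genes (green) lie above the beta ring genes (orange) in most panels.

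The unequal gaps of the alpha and beta rings were seen outside the phagocytes as well. Of the UMIs of both rings in mononuclear phagocytes, 58.7%, 58.7% and 56.5% came from the alpha ring in the allogeneic libraries, beside 47.9% in the isograft. In endothelial cells the shares were 60.5%, 61.4% and 57.2% beside 50.4%, and in fibroblasts 60.4%, 59.2% and 55.1% beside 50.7%. Neutrophils, with fewer UMIs, had 63.8%, 63.9% and 66.0% beside 49.0%. In T cells the shares were 54.6%, 55.5% and 54.3% beside 54.3%, the isogeneic one from 175 UMIs. In 4 of the 5 classes every allogeneic library thus had the larger alpha share, and in T cells the isograft lay within the allogeneic values. An exact permutation test of 3 libraries against 1 cannot give a p under 0.25, so none is printed, and these classes come from the same 4 libraries.

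**Figure D3:**
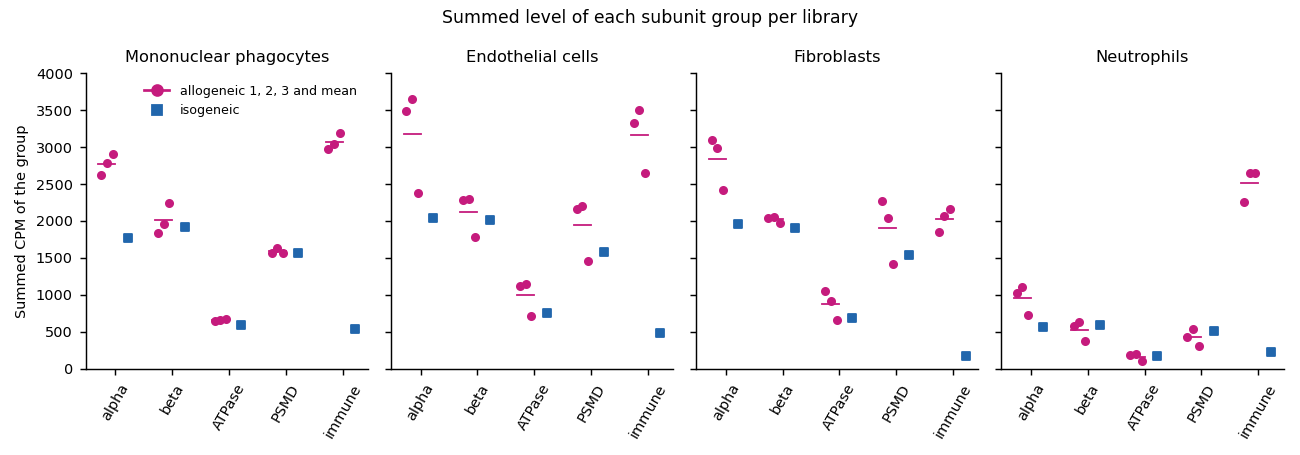
Summed CPM of the alpha, beta, ATPase and PSMD groups and of the 3 immune core genes in 4 cell classes; the y axis is linear, circles are allogeneic replicates 1, 2 and 3 from left to right with a line at their mean, and squares are the isograft. The alpha sums of the isograft (1766, 2042, 1959 and 567) lie below every allogeneic library, whereas its beta sums do not in phagocytes, endothelial cells or neutrophils.

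In endothelial cells the alpha ring's median log2 difference was 0.66. All 7 genes were above the isograft in every allogeneic library, as were 29% of all genes. Psma5 had 464, 483 and 307 CPM beside 232 (log2 0.90 ± 0.33, adjusted p = 0.189), and Psma7 had 874, 955 and 603 beside 475 (0.83 ± 0.33, adjusted p = 0.214). Allogeneic replicate 3 was the lowest of the 3 for both genes and still above the isograft. Psmb5 had 215, 229 and 184 CPM beside 230.0, so all 3 were below the isograft, replicate 2 by the least (log2 -0.08 ± 0.23, adjusted p = 0.873). Psmb6 and Psmb7 had log2 differences of 0.22 and 0.42 (adjusted p = 0.700 and 0.357).

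In fibroblasts the alpha ring's median was 0.46. Of its 7 genes 6 were above the isograft in every allogeneic library (24.9% of all genes were), and Psma3 overlapped. Psma5 had 473, 430.3 and 353 CPM beside 231 (log2 0.77 ± 0.33, adjusted p = 0.358), and Psma7 had 622, 681 and 550.1 beside 385 (0.60 ± 0.33, adjusted p = 0.534). Psmb5, Psmb6 and Psmb7 had log2 differences of -0.13, 0.08 and 0.31 (adjusted p = 0.948, 0.975 and 0.827). In neutrophils, where the isograft gave 2 to 59 UMIs per member, Psma5 had 170, 158 and 121 CPM beside 53.4 (log2 1.62 ± 0.56, adjusted p = 0.116), and Psma7 had 273, 343 and 251 beside 117 (1.47 ± 0.55, adjusted p = 0.166). Neither gene's groups overlapped in neutrophils. Psmb5, Psmb6 and Psmb7 there had log2 differences of 0.59, 0.34 and -0.69, with adjusted p-values of 0.755, 0.869 and 0.769. In T cells the isograft gave 0 to 24 UMIs per member from 30 cells, so no fold is given.

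Counted by side, 21 of 34 members in mononuclear phagocytes had all 3 allogeneic libraries above the isograft and 6 had all 3 below, beside 35.6% and 36.7% of all genes. The counts were 16 above and 5 below in endothelial cells (29% and 37.3% of all genes), and 16 and 2 in fibroblasts (24.9% and 27.7%). In neutrophils they were 6 and 4 of the 28 tested (23% and 35.4%), and in T cells 27 and 5 (60.3% and 31.2%). Over all members the median log2 difference was 0.16 in mononuclear phagocytes, 0.41 in endothelial cells, 0.30 in fibroblasts and 0.13 in neutrophils, and the medians over all genes of those classes were -0.02, 0.00, -0.02 and 0.03. The neutrophil median was -0.0917 without allogeneic replicate 2, 0.42 without replicate 3 and -0.0809 under a stricter class gate, and the fibroblast median was 0.14 with the highest-UMI cells removed.

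These counts turned on allogeneic replicate 3. Without it, 15 members passed as higher and 3 as lower (Psmb4, Psmd6 and Psmd8) in mononuclear phagocytes, where 7848 of 15999 genes passed, and 24 passed as higher in endothelial cells, where 5160 of 13211 did. All 7 alpha ring genes were among them in both classes. In neutrophils 2 of 21 members passed (Psma5 and Psma7; 15.1% of all genes did), in T cells 2 (Psmd7 and Psmd12; 3.99%) and in fibroblasts 0 (9.07%), whose allogeneic cells then numbered 55 and 154. With replicate 1 or replicate 2 left out instead, 0 members passed in any class. The median UMIs per mononuclear phagocyte were 10597, 7968 and 7808 in the allogeneic libraries, beside 4656 in the isograft. Depth ranges were added after seeing the data. Among cells of 5000 to 20000 UMIs the alpha ring's median log2 difference in that class was 0.45, with all 7 genes positive, and among cells of 1000 to 4000 UMIs it was 0.16, with 5 of 7 positive.

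Against this, the immune core genes, given as reference, rose in the same fits. Psmb8 had 1544, 1593 and 1725 CPM in allogeneic mononuclear phagocytes and 295 in the isograft (log2 2.45 ± 0.22, adjusted p = 0.0103). Psmb9 and Psmb10 rose by 2.99 ± 0.25 and 2.09 ± 0.27 (adjusted p = 0.00957 and 0.0207). All 3 genes passed in mononuclear phagocytes, endothelial cells (2.98, 2.58 and 2.27), fibroblasts (3.60, 4.28 and 2.46) and neutrophils (3.93, 3.48 and 3.37), in the order Psmb8, Psmb9, Psmb10, and none did in T cells. The endothelial calls were lost without allogeneic replicate 2, where no gene of that class passed and the adjusted p-values of the 3 genes were 0.160, 0.134 and 0.157.

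Set against the constitutive gene it replaces, Psmb8 gave 88.8%, 88.0% and 87.1% of the Psmb5 plus Psmb8 UMIs in allogeneic mononuclear phagocytes and 57.9% in the isograft (Wilson 95% interval 56.9% to 59.0%, counting error only). In fibroblasts it gave 82.6%, 82.8% and 83.2% beside 26.7% (26.1% to 27.3%). Fibroblasts of the isograft also had the lowest Psmb9 share of the Psmb6 pair, 8.75%, beside 61.4%, 59.1% and 69.5% in the allogeneic libraries. The Psmb10 share of the Psmb7 pair in mononuclear phagocytes was 79.7%, 81.7% and 82.5% beside 53.7%. In fibroblasts the constitutive partner Psmb5 had 227, 252 and 225 CPM beside 242, and Psmb6 had 297, 342 and 280 beside 274. In T cells the Psmb8 share was 78.7%, 79.2% and 76.1% beside 82.8% from 58 UMIs (71.1% to 90.4%).

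A list of 35 further genes of the pathway, among them the immune core genes, activators, inhibitors, assembly chaperones, ubiquitin genes and shuttle factors, gave 6 higher and 0 lower of 34 tested in mononuclear phagocytes, where 4.67% of all genes were higher. Beside the immune core genes these were Psme1 and Psme2, which encode the interferon-induced activator cap of the core particle, and Psme4, which encodes another activator. Psme1 had 720, 767 and 905 CPM beside 227 (log2 1.80 ± 0.23, adjusted p = 0.0200), and Psme2 had 704, 800 and 1281 beside 175 (2.39 ± 0.42, adjusted p = 0.0392). Psme4 had 60.9, 57.1 and 62.7 CPM beside 34.2 (0.80 ± 0.16, adjusted p = 0.0468). All 3 calls were lost without replicate 1 (adjusted p = 0.0606, 0.0514 and 0.200) and without replicate 2 (0.0614, 0.0586 and 0.185).

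Psme1 and Psme2 also passed in endothelial cells (2.33 and 2.23), fibroblasts (2.65 and 1.96) and neutrophils (2.80 and 3.39), and were the only pathway genes there beside the immune core genes, 5 of 33, 34 and 24 tested, where 3.09%, 1.93% and 4.38% of all genes were higher. In T cells 0 of 33 passed, and no pathway gene passed as lower in any of the 5 classes. Pomp, the chaperone of core particle assembly, had 565, 622 and 726 CPM beside 334 in mononuclear phagocytes and did not pass. Nfe2l1, the factor that acts through the antioxidant response element, had 53.9, 53.9 and 48.8 CPM beside 36.5 and did not pass. Both had all 3 allogeneic libraries above the isograft.

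Whether the allogeneic effect differed between classes was tested as an interaction, mononuclear phagocytes minus each other class with the library as a block. No member passed against T cells (0.509% of 16692 genes did), neutrophils (0.162%), endothelial cells (1.61%) or fibroblasts (1.98%). At an unadjusted p under 0.05 the members numbered 10, 0, 0 and 0, counts given without the share over all genes. With DESeq2's size factors 0 passed as well. The median difference over the members was -0.12 against endothelial cells and 0.09 against fibroblasts, beside 0.07 and 0.09 over all genes, and DESeq2's size factors moved the members' medians to -0.25 and -0.18, beside -0.07 and -0.15 over all genes. Without allogeneic replicate 3, 5 members passed as lower in mononuclear phagocytes than in endothelial cells (Psmc2, Psmc5, Psmd11, Psmd12 and Psmd14) and 1 as lower than in T cells (Psmd12). In those fits 17.3% and 3.09% of 16589 genes passed, 1286 and 307 of them as lower.

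In summed level, neutrophils stood apart from the other 4 classes by more than the grafts differed within any class. Summed over the 34 genes, neutrophils had 2226, 2476 and 1515 CPM in the allogeneic libraries, beside 1844 in the isograft. Mononuclear phagocytes had 6670.4, 7039, 7391 and 5857 CPM in the same order, and endothelial cells 9065, 9305, 6339 and 6394. Fibroblasts had 8451, 7993, 6471 and 6091 CPM, and T cells 6465, 6748, 7130.4 and 4756. Neutrophils were below every other class in each library. In a fit with the library as a block, 33 of 34 genes were lower in neutrophils than in the mean of the other classes (27.7% of 14463 genes were lower), with a median log2 difference of -1.49 beside -0.61 over all genes. The exception was Psmd10, the gankyrin gene, at -0.15 (adjusted p = 0.803).

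The widest differences in neutrophils were those of Psmd7 (-2.45 ± 0.32), Psmc4 (-2.31 ± 0.28), Psmd1 (-2.23 ± 0.36) and the deubiquitinase gene Psmd14 (-2.12 ± 0.28), with adjusted p-values of at most 3.2e-05. Psmd7 had 22.1, 54.2, 16.6 and 28.0 CPM in neutrophils and 392, 331, 214 and 216 in fibroblasts. The neutrophil values rest on few counts. Members there gave 0 to 37, 2 to 76, 3 to 212 and 2 to 59 UMIs each in the same library order. The regulatory particle genes lay lower than the core rings: group medians were -1.81 for the ATPase ring and -1.84 for the Psmd group, beside -1.34 for the alpha and -1.45 for the beta ring. Neutrophils had median UMIs per cell of 1200 to 2333, the lowest of the 5 classes in each library. A comparison among cells of 1000 to 4000 UMIs in 4 classes was chosen after seeing the data. In it 25 of 34 genes were lower in neutrophils and none higher, beside 2582 lower and 2179 higher over all genes. The members' median was -1.15 beside -0.47 over all genes.

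Mononuclear phagocytes had 25 of 34 genes higher and 0 lower (28.5% of all genes were higher and 14.9% lower), with a median of 0.55 beside 0.15. Psmb6 led at 1.08 ± 0.16, with Psmd8 (1.05 ± 0.18), Psma6 (0.82 ± 0.17) and Psma4 (0.73 ± 0.16), all with adjusted p of at most 0.00116. With DESeq2's size factors 11 were higher and 1 lower, and the medians of the members and of all genes moved to 0.36 and -0.03. That scaling also cut the share of all calls that were higher from 65.7% to 53.0%. Without allogeneic replicate 3 the count was 13 and without replicate 2 it was 16, beside 4876 and 4604 calls over all genes. Against endothelial cells alone, among cells of 5000 to 20000 UMIs, 3 were higher and 2 lower, beside 3577 and 3416 of all genes. For phagocytes, fibroblasts, endothelial cells and T cells the mean of the other classes includes the neutrophils, whose members' median was -1.49. Summed over the 34 genes, phagocytes exceeded both endothelial cells and fibroblasts only in allogeneic replicate 3. The part of the neutrophils in these calls was not tested.

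Fibroblasts had 24 genes higher and 0 lower (32.5% and 20.8% of all genes), with a median of 0.52 beside 0.18, led by Psmd7 (1.16 ± 0.21), Psmd6 (0.91 ± 0.18), Psmc5 (0.82 ± 0.20) and Psma4 (0.76 ± 0.16). Endothelial cells had 17 higher and 0 lower (28.5% and 18.2% of all genes), with a median of 0.42 beside 0.15, led by Psmc4 (0.94 ± 0.17), Psmd7 (0.85 ± 0.21), Psmd3 (0.81 ± 0.20) and Psmc6 (0.75 ± 0.14). All 6 ATPase genes passed in both of these classes. Without allogeneic replicate 1 the counts were 14 in fibroblasts and 6 in endothelial cells, where 4290 and 3380 of 14431 genes were higher. Without replicate 2 they were 13 and 4, beside 3828 and 3003 of 13478 genes. The endothelial members' share was then below that of all genes. T cells had Psmd5 (0.62 ± 0.22) and Psmd14 (0.55 ± 0.19) higher and Psmd10 (-0.52 ± 0.20) lower, where 30.6% of all genes were higher and 28.6% lower. The T cell count was 0 without allogeneic replicate 3, 1 without replicate 1 or 2 and 9 without the isograft. Over all genes those fits called 7070, 6889, 6607 and 8517 in that order. With DESeq2's size factors 1 was higher and 5 lower in T cells, beside 3763 and 4716 of 14463 genes. With cells holding a cell cycle gene left out, 0 were higher and 3 lower, beside 3357 and 3241 over all genes. The members' median was then -0.17 in place of 0.05.

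**Figure D4:**
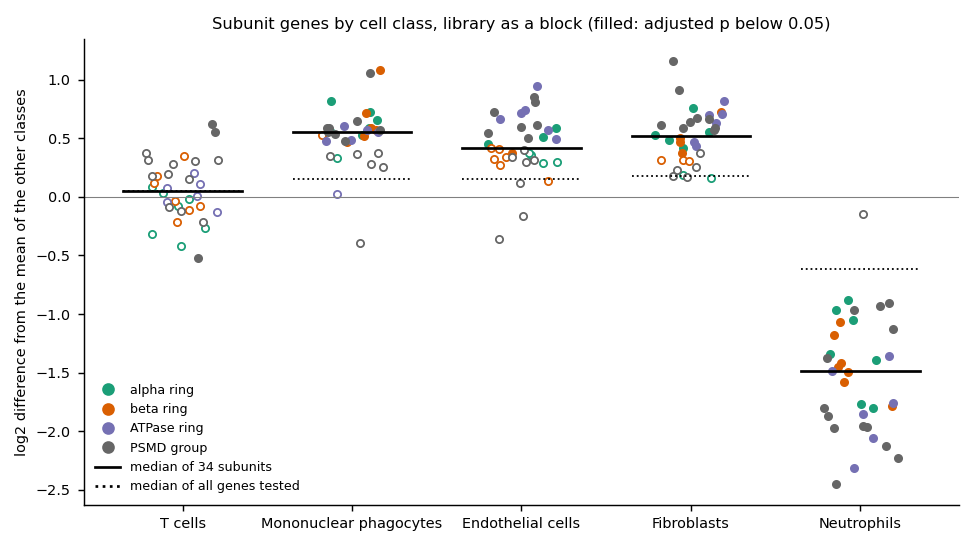
Log2 difference of each of the 34 genes between a class and the mean of the other 4 classes (y axis), coloured by group and filled where the adjusted p was below 0.05; solid lines are the members' medians and dotted lines the medians of all genes tested. Neutrophils lie lowest at -1.49, and the members' medians in mononuclear phagocytes, endothelial cells and fibroblasts (0.55, 0.42 and 0.52) lie above those of all genes.

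The last comparison was between dividing cells (at least 3 of 8 cell cycle genes with a UMI) and non-dividing cells (none) of one class, with the library as a block. In T cells of the 3 allogeneic libraries 24 of 34 genes were higher in dividing cells and 0 lower (20.2% of 10277 genes were higher and 18.3% lower), with a median of 0.41 beside -0.02 over all genes. Psmc1 had 71.8, 68.8 and 89.6 CPM in dividing and 48.2, 45.7 and 43.9 in non-dividing T cells, higher in 3 of 3 libraries (0.81 ± 0.13, adjusted p = 9.1e-04, edgeR). Psmd13 (0.67 ± 0.11), Psmc3 (0.62 ± 0.12) and Psmb6 (0.57 ± 0.10) followed, with adjusted p of at most 0.00252. Psmb6 had 284, 315 and 318 CPM beside 221, 245 and 195. In T cells without replicate 2, 7 members passed, all higher, where 1129 of 9451 genes were higher.

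Dividing T cells also held more RNA counts: their median UMIs were 16775, 12537 and 14472, beside 5047, 3814 and 3478 in the non-dividing ones. Among T cells of 5000 to 20000 UMIs 934 of 8970 genes were higher and 2 of 34 members, a smaller share: Psmc1 (0.54 ± 0.15, adjusted p = 0.0214) and Psmc3 (0.48 ± 0.13, adjusted p = 0.0167), and the median over the members was 0.01. Without the library block 3 passed, beside 1730 calls over all genes. In fibroblasts (allogeneic replicates 1 and 3 and the isograft) 19 of 34 were higher in dividing cells (11% of 14290 genes were), with a median of 0.36 beside -0.03. They were led by Psmc1 (0.59 ± 0.12), Psmd13 (0.57 ± 0.12), Psma1 (0.55 ± 0.12) and Psmc4 (0.52 ± 0.11), with adjusted p of at most 0.00599.

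Of the 24 and 19 genes called, 15 were called in both classes, 62.5% of the first list and 78.9% of the second. Over all 34 members 55.9% were called in fibroblasts and 70.6% in T cells. In fibroblasts 2 members passed without replicate 3, 2 without the isograft and 0 without the library block, beside 1254, 1062 and 318 calls over all genes. Dividing fibroblasts too had more UMIs (medians of 12692 to 32664 beside 6219 to 11629). In mononuclear phagocytes of all 4 libraries 0 of 34 passed (16.9% of 12647 genes did). At an unadjusted p under 0.05 there were 4, a count given without the share over all genes. The median was 0.09 beside -0.04 over all genes, and DESeq2's Wald test called 0 as well. Among cells of 5000 to 20000 UMIs the median was -0.0587, with 26 of 34 members negative, and without the isograft it was -0.0227. In simulated data of that comparison 81% of 2-fold changes (log2 of 1) were recovered. Changes as small as the medians in T cells (0.41) and fibroblasts (0.36) were not simulated, so the reach there is not known. Whether the effect of division differed between classes was not tested.

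**Figure D5:**
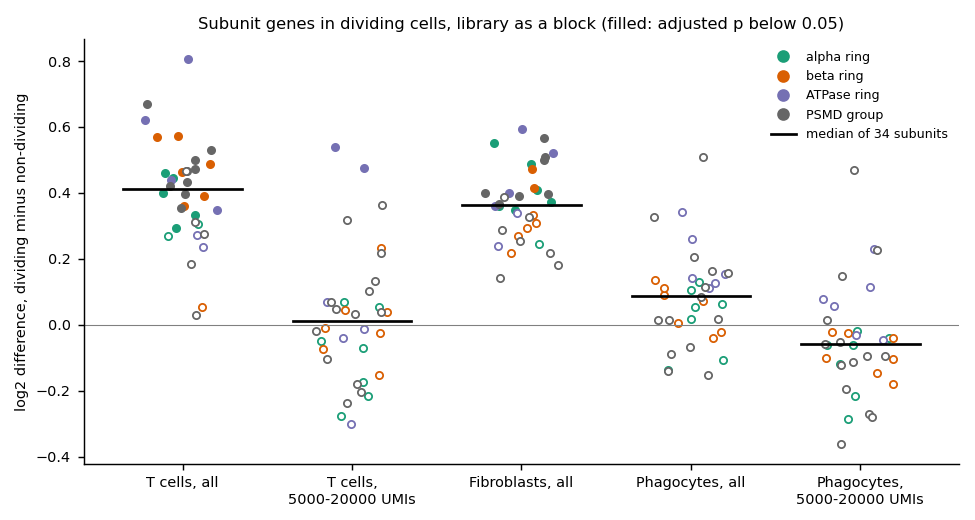
Log2 difference between dividing and non-dividing cells of each of the 34 genes (y axis), in all cells and in cells of 5000 to 20000 UMIs, filled where the adjusted p was below 0.05, with a line at the median. The T cell median was 0.41 over all cells and 0.01 within the depth range, and the fibroblast median was 0.36.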

How the data were processed

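The deposited matrices hold counts (UMIs per gene and barcode, whole numbers, not normalized) that the authors made with Cell Ranger, version 3.1.0 with build mm10 per the submitters' processing notes and 6.1.0 per the matrix headers. Barcodes with under 500 UMIs, under 300 genes or over 20% mitochondrial UMIs were removed; no doublet caller was run, and leaving out the highest-UMI cells was an alternative, as were other gates, filters, scalings, depth ranges and each library left out. Cells were assigned by marker gates, and raw counts summed per library and class. Tests used edgeR 4.0.16 (TMM, filterByExpr, quasi-likelihood F-test, Benjamini-Hochberg over all genes tested, 0.05) with DESeq2 1.42.0 as an alternative, in R 4.3.3. The SE is the log2 difference over the square root of F, an approximation. Scripts were tested on simulated data. Described in full were Psmb5 to Psmb7, the most and least abundant gene of each group, the 4 widest called differences per other fit and called pathway genes, with Psma5 added after its values were seen. Members and lists were chosen with earlier results of these data known. Promoter sequences are RefSeq's (GRCm38.p6), with 28 members matched.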

Additional observations from a re-analysis of the deposited data

How the results depend on the processing

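No paired analysis was possible because the allogeneic and isogeneic groups share 1 replicate number. In the fits within libraries the block is the library itself. Without this replicate block the members called were 13 in mononuclear phagocytes and 15 in fibroblasts (class against the other classes), and 3 in T cells and 0 in fibroblasts (dividing cells). Over all genes those fits called 4897, 6505, 1730 and 318. DESeq2's Wald test gave 4 in mononuclear phagocytes for the grafts, 9 in T cells and 26 in endothelial cells for the classes, and 15 in T cells and 12 in fibroblasts for division. Its calls over all genes were 2369, 9201, 7394, 2351 and 1467 in that order. DESeq2's size factors gave 6 in T cells and 12 in mononuclear phagocytes for the classes, beside 8479 and 6208 calls over all genes. Without an expression filter, 1 member was called in mononuclear phagocytes for the grafts and 10 in fibroblasts for division. Calls over all genes were then 1995 and 3062. Leaving out cells with a cell cycle gene gave 1 in mononuclear phagocytes for the grafts, beside 1179 calls over all genes. A division gate of 2 genes gave 8 in fibroblasts, beside 2127 calls over all genes. Cells of 5000 to 20000 UMIs gave 2 in T cells for division, beside 1458 calls over all genes. Depth ranges were added for the grafts and the classes after seeing the data. For the classes, 1000 to 4000 UMIs gave 11 in mononuclear phagocytes, beside 2878 calls over all genes. The range of 5000 to 20000 UMIs gave 5 in mononuclear phagocytes and 5 in endothelial cells, beside 6993 calls over all genes in each.

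Leaving out 1 library gave, for the grafts, 0 to 2 in T cells, 0 to 18 in mononuclear phagocytes, 0 to 2 in neutrophils, 0 to 24 in endothelial cells and 0 to 0 in fibroblasts. For the classes it gave 0 to 9, 13 to 25, 31 to 33, 4 to 18 and 13 to 21 in the same order. Over all genes those class fits called 6607 to 8517, 4604 to 5994, 4776 to 6267, 5002 to 6577 and 6132 to 7060. For the difference of the graft effect it gave 0 to 1 against T cells, 0 to 0 against neutrophils, 0 to 5 against endothelial cells and 0 to 0 against fibroblasts. For division it gave 7 to 24 in T cells, 0 to 0 in mononuclear phagocytes and 2 to 14 in fibroblasts. Over all genes those division fits called 2135 to 4516, 1380 to 1883 and 1062 to 2270. Too few cells in a library kept the depth ranges from being run in fibroblasts, and kept that of 5000 to 20000 UMIs from being run in T cells and neutrophils for the grafts and the classes.

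Small differences between the grafts turned sign. In mononuclear phagocytes Psmb5 was -0.0561 in cells under the C1q gate, -0.0177 in cells of 5000 to 20000 UMIs, -0.29 in cells of 1000 to 4000 UMIs and -0.0115 to 0.125 with 1 library left out (-0.0115 without allogeneic replicate 3). Psmb6 was -0.0371 and -0.0114 in the same depth ranges and -0.0123 to 0.0681 with 1 library left out (-0.0123 without allogeneic replicate 2). Psmc2 was -0.13 under the C1q gate and -0.057 and -0.0531 in the depth ranges, and Psmd5 was 0.0782 under the C1q gate. In endothelial cells Psmb5 was 0.0158 with cells holding a cell cycle gene left out and -0.171 to 0.0249 with 1 library left out (0.0249 without allogeneic replicate 3). Scaling by DESeq2's size factors moved the share of higher calls over all genes in the difference of the graft effect from 52.9% to 74.7% (T cells), 52.6% to 41.1% (endothelial cells) and 35.6% to 18.7% (fibroblasts). The cause of these changes was not tested. One isogeneic library, 30 isogeneic T cells and 55 fibroblasts in allogeneic replicate 1 limit the precision.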

Other observations

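Cells that no class gate took in, and classes too small to test, are given as values. In the unassigned cells the 34 genes summed to 6843, 6932 and 6873 CPM in the allogeneic libraries and 6075 in the isograft, and the alpha ring gave 58.5%, 58.4% and 56.0% of the UMIs of both core rings beside 50.2%. Over all cells that passed the filters the alpha shares were 57.9%, 58.2% and 55.6% beside 50.1%. Dendritic cells, with 9, 9, 20 and 10 cells, had alpha shares of 61.0%, 64.1% and 57.7% beside 53.9%, and mural cells 56.9%, 55.0% and 55.9% beside 50.1%.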
